A study of Mus musculus with 48 samples.

Results

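Oxidative phosphorylation is carried out by 5 protein complexes of the inner mitochondrial membrane. Complexes I to IV pass electrons from NADH and succinate to oxygen and, except for complex II, pump protons, and complex V, the ATP synthase, uses the proton gradient to make ATP. Most subunits are encoded in the nucleus and imported, and the rest are encoded in mitochondrial DNA. The nuclear-encoded genes described here were chosen by name: protein-coding genes whose symbol starts with Ndufa, Ndufb, Ndufc, Ndufs or Ndufv (complex I), Sdh (complex II), Uqcr (complex III), Cox4 to Cox8 (complex IV) or Atp5 (complex V), leaving out the Ndufaf assembly factors. The rule found 92 identifiers among 55486 genes of the count table: 39 for complex I, 8 for complex II, 8 for complex III, 19 for complex IV and 18 for complex V. They carry 91 symbols, because Atp5o has 2 identifiers. Complexes were assigned by the prefix alone, so Ndufa4 and Ndufa4l2 count in complex I by name and not by the place of their proteins. Complex II includes the assembly factors Sdhaf1 to Sdhaf4, which the Sdh prefix takes in, and Ndufb1-ps and Cox5b-ps have pseudogene names although the table types them as protein-coding.

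The series asked what loss of QPCTL, an enzyme that modifies the amino terminus of proteins such as CD47, changes in tumours and lymphoid organs of mice. It holds 48 samples of the C57/Bl6JR QPCTL-KO strain in 5 tissue groups, each with as many homozygous knockout as wild-type littermates. Baseline lymph node, spleen and bone marrow (8 samples each) were whole snap-frozen organs of uninoculated mice aged 10 to 15 weeks. Lymph nodes and live CD45-negative cells sorted from tumours (12 samples each) were collected from mice that had received B16F10 melanoma cells 14 days earlier, knockout tumour cells going into knockout mice and wild-type ones into wild-type littermates. B16F10 is a single established mouse melanoma line, and CD45 is the surface protein shared by leukocytes. Host and tumour genotype always changed together and cannot be told apart.

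Of the 48 columns of the count table, the 28 named for spleen (8), bone marrow (8) and tumour (12) could be given a tissue. The 20 lymph node columns were not used, because their names do not tell baseline from tumour-bearing nodes, and no column name gives a genotype. Each tissue below is therefore a mixture of both genotypes, and genotype is seen only in the authors' deposited table of knockout and wild-type tumours. The targeted gene Qpctl could not check any label of a column; its level in CPM (counts scaled to library totals adjusted by TMM factors) ranged from 11.1 to 51.0 in spleen, from 11 to 28.6 in bone marrow and from 5.69 to 31.1 in tumour cells. The labels do not say in full whether the samples of a group came from separate animals, so p-values measure the spread between these samples. Whole organs and sorted cells were also prepared differently, which cannot be told apart from tissue.

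Few of the reads were counted to genes. Counted reads per library ranged from 54117 to 637985 with a median of 332073.5. That median is 1.84% of the average number of reads that the labels give. Why the other reads were not counted was not tested. All 92 genes together had 153 to 2127 counts in a library. Of the 28 libraries, 4 stood apart from their group: 3 spleen libraries (5, 6 and 8) correlated with the spleen median at 0.90, 0.78 and 0.88 in log2 CPM, and tumour library 4 held the fewest counts and correlated at 0.85. The summed CPM of erythroid genes was 6360 in spleen library 5 and 7614 in library 6, against 161 to 1444 in the other spleen libraries. Cycling genes summed to 1042 and 2916 CPM in these libraries, against 38.8 to 363 in the others, and spleen library 8 was lowest in both lists. In tumour cells the 6 melanocyte markers summed to between 2062 and 5769 CPM, against 29.0 to 327 in spleen, and Ptprc, which encodes CD45, had no read. Neutrophil and myeloid precursor genes summed to between 14872 and 33463 CPM in bone marrow. B cell genes summed to between 104 and 882 CPM in spleen and to 0 in all tumour libraries. Each tissue thus carried the markers of its label, with spleen library 6 less clear than the rest. Its B cell sum of 104 CPM lay within the marrow range of 41.2 to 194 CPM, while the other spleen libraries had 321 CPM or more. Its neutrophil and myeloid precursor sum of 1885 CPM was the highest in spleen, where the median was 319 CPM.

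A property of the counts bears on every value below. Genes that overlap exons of a coding gene on the other strand by 50 bases or more make up 9.01% of the table, and they held between 61.2% (a tumour library) and 83.8% (another tumour library) of the counts. The mitochondrial gene mt-Nd6, the only protein-coding gene on its strand of mitochondrial DNA, had a median of 15511 CPM in spleen, whereas mt-Co2 and mt-Co3 on the other strand, normally among the most abundant transcripts of a cell, had 4 and 2 reads in the 8 spleen libraries. Genes of that other strand were uneven. In spleen, mt-Nd3 and mt-Atp6 had 0 reads. The medians of mt-Nd5, mt-Nd4, mt-Cytb, mt-Co1, mt-Nd2 and mt-Nd1 were 5195, 1062, 751, 725, 362 and 321 CPM. The library kit keeps the strand. The strand setting of the counting is not given in the sources used here, and which strand the reads of a member came from was not tested. Of the 92 members, 21 (22.8%) have such opposite-strand exons, against 11.1% of protein-coding genes, and results are given with and without them.

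Member promoters were searched for short sequence motifs, each of which most of them lacked. Nuclear genes of oxidative phosphorylation are known targets of NRF-1, of the ETS factor GABP (also called NRF-2) and of YY1. In the RefSeq promoter table (build GRCm38.p6, 250 bases before to 50 after each start) 73 of the member genes were found. The NRF-1 core CGCATGC, searched on both strands, occurred in 15.1% of them and in 4.01% of 27025 genes. The ETS core CCGGAAG occurred in 27.4% against 9.93%, and the YY1 core AAGATGG in 15.1% against 7.28%. The TATA box TATAAA occurred in 12.3% of the members and in 15.7% of all genes. A match is a description of the letters and not of binding. The promoter of Atp5e, the epsilon subunit of the ATP synthase, is shown as an example whose 60 bases around the ETS core hold no annotated exon. The part of this core in the level of Atp5e was not tested. The core, in capitals and written in reverse complement, lies from 102 to 96 bases before the start (stretch at chr2:174464170-174464229, minus strand, GRCm38.p6, before the first annotated exon):
Atp5e: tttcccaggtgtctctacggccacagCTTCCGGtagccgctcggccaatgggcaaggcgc

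As a group, the members took a small share of the counts in every tissue. In spleen the share ranged from 0.108% to 0.338% with a median of 0.267%. In bone marrow it ranged from 0.209% to 0.311% with a median of 0.265%, and in tumour cells from 0.161% to 0.417% with a median of 0.311%. The groups overlapped throughout. When the 71 members without opposite-strand coding exons were set against the counts of all genes without such exons, the tumour share (0.480% to 0.938%, median 0.758%) was above the marrow range (0.456% to 0.592%, median 0.487%) in 9 of 12 libraries, while spleen ranged from 0.238% in library 8 to 0.776% in library 5, with a median of 0.498%. Spleen library 5 was also among the highest in erythroid and cycling genes and library 8 the lowest, and the part of those cells in the spleen extremes was not tested. In bulk samples, fewer cells with a transcript and less RNA per cell cannot be told apart.

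**Figure D1:**
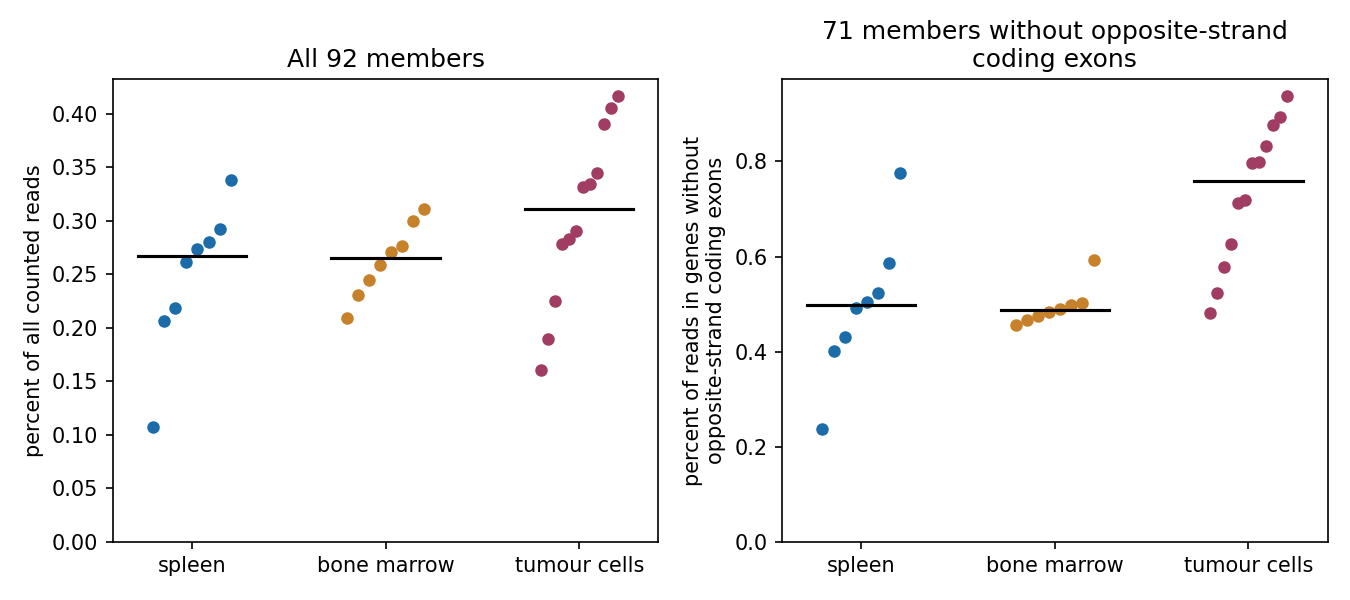
Share of counted reads in the members per library (1 point a library, line at the median; y axis in percent) for 8 spleen, 8 bone marrow and 12 tumour cell libraries. On the left all 92 members are set against all counts, and the 3 tissues overlap. On the right the 71 members without opposite-strand coding exons are set against counts of such genes only, where the tumour median of 0.758% stands above 0.498% in spleen and 0.487% in bone marrow.

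The share of the members moved with the share of counts in genes with opposite-strand coding exons. Across the 8 bone marrow libraries, the members without such exons, as a percent of all counts, fell as the opposite-strand share rose (Pearson r = -0.86, Spearman rho = -0.95; permutation p = 0.00491 and 0.00114, adjusted over 6 relations 0.0147 and 0.00685; r = -0.74 without the 2 outermost libraries). Across the 12 tumour libraries r was -0.78 and rho -0.79 (permutation p = 0.00266 and 0.00334, adjusted 0.0147 and 0.01002; r = -0.98 without tumour libraries 4 and 12). In spleen r was -0.73 and rho -0.50 (permutation p = 0.0830 and 0.216, adjusted 0.166 and 0.324), and r without spleen libraries 3 and 8 was -0.02, so that value rests on those libraries. Both shares are parts of 1 total, which builds in part of such a relation. With the members set against genes without opposite-strand exons only, none of the 3 tissues passed (r = -0.52 in spleen, -0.33 in bone marrow and -0.37 in tumour cells; permutation adjusted p = 0.263, 0.423 and 0.282), although r in tumour cells was -0.95 without libraries 4 and 12.

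**Figure D2:**
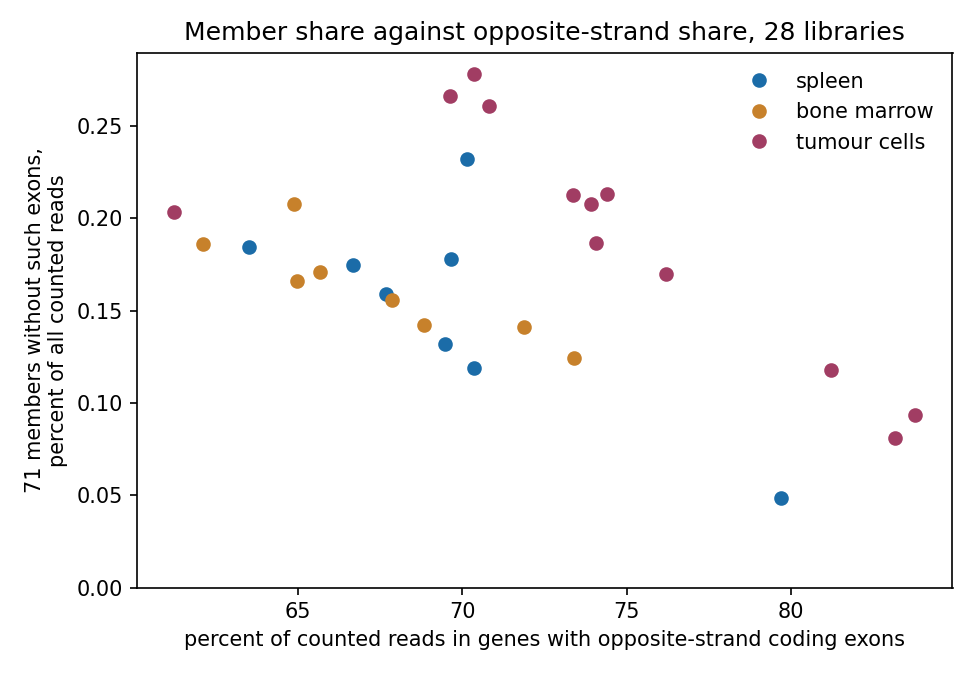
Share of all counts in the 71 members without opposite-strand coding exons (y axis, percent) against the share of counts in genes with such exons (x axis, percent), 1 point for each of 28 libraries, coloured by tissue. Libraries with more counts in opposite-strand genes have a lower member share within bone marrow (r = -0.86) and tumour cells (r = -0.78). In spleen the relation rests on 2 libraries.

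Single members could be tested only where counts allowed. The edgeR filter on low counts left 5143 genes, among them 35 of the 92 members (11 of complex I, 3 of complex II, 4 of complex III, 6 of complex IV and 11 of complex V). Of the other 57, 3 had no read at all: Cox8c and Cox7b2, which are known as testis isoforms, and 1 of the Atp5o identifiers. Per exon length and averaged over the tissues, Uqcrh (a hinge protein of complex III) ranked first of all members, followed by Atp5b (the catalytic beta subunit of the ATP synthase), Cox6b1, Atp5pb and Atp5k. In RPKM (CPM per kilobase of exons), Uqcrh had a median of 78.0 in spleen, 44.9 in bone marrow and 51.1 in tumour cells, and Atp5b had 40.8, 43.2 and 77.8. Among the tested members of each complex, the highest per length were Ndufa4, Ndufb1-ps and Ndufb11 in complex I, Sdhb, Sdha and Sdhaf2 in complex II (its only tested members), Uqcrh, Uqcr10 and Uqcrc2 in complex III, Cox6b1, Cox7b and Cox6a1 in complex IV, and Atp5b, Atp5pb and Atp5k in complex V. The lowest were Ndufs1 and Ndufb2, Uqcrc1 and Uqcrc2, Cox5b and Cox6c, and Atp5g3 and Atp5j2. Of these, Ndufb1-ps, Ndufb11, Ndufb2, Sdhaf2, Uqcrc2, Cox6c and Atp5pb have opposite-strand coding exons.

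Bone marrow and spleen differed in few members. At an adjusted p below 0.05, 3 of the 35 were higher in bone marrow and 2 were lower, which is 14.3% of them, while 38.4% of all 5143 genes were called in this comparison (19.7% higher and 18.7% lower). Without opposite-strand members, 2 were higher and 2 lower of 22, with a background of 36.7%. The median log2 fold change of the members was 0.10, and that of all genes 0.02. Without a filter the members' median was -0.04, and with a filter of 1 CPM in 8 libraries it was -0.01. The largest difference was in Ndufs1, the iron-sulfur subunit of the NADH-oxidising arm of complex I (chromosome 1, 63143596 to 63176833, minus strand, GRCm38). Ndufs1 had 15.7 to 37.3 CPM in spleen (median 21.2), 47.6 to 95.4 in bone marrow (median 68.2) and 37.3 to 93.8 in tumour cells (median 71). All 8 marrow libraries were above every spleen library, with a log2 fold change of 1.58 ± 0.23 (SE) and an adjusted p of 3.74e-07. Exons of Ndufs1 share 489 bases with the non-coding opposite-strand gene Ino80dos, whose median was 236 CPM in spleen, 300 in bone marrow and 962 in tumour cells, and its part in the Ndufs1 values was not tested.

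Ndufv3, a small accessory subunit next to the NADH-binding site of complex I (chromosome 17, 31520115 to 31531331, plus strand), has no annotated exon opposite to it. It had 24.9 to 68.8 CPM in spleen (median 43.5), 81.4 to 135 in bone marrow (median 90.7) and 34.1 to 85.4 in tumour cells (median 65.2). Bone marrow was highest, and its 8 libraries were all above the spleen libraries (log2 fold change 1.12 ± 0.21, adjusted p = 3.38e-05). Tumour cells were below bone marrow in turn (-0.66 ± 0.18, adjusted p = 0.00157). Atp5pb, the b subunit of the ATP synthase stalk, was also higher in bone marrow (0.47 ± 0.16, adjusted p = 0.0189), but it overlaps Wdr77 on the other strand, and its call was lost when any of 8 single libraries was left out (spleen 2, 7 or 8, marrow 4, 6 or 7, tumour 6 or 8; adjusted p up to 0.0972).

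Members lower in bone marrow than in spleen were Uqcrh and Atp5e. Uqcrh had 16.6 to 176 CPM in spleen (median 96.5), 38.4 to 86.9 in bone marrow (median 55.6) and 34.1 to 87.7 in tumour cells (median 63.2). Spleen library 8 was lowest and library 5 highest, so the groups overlapped, and the log2 fold change was -0.68 ± 0.25 (adjusted p = 0.0273; 0.0681 without spleen library 5). Atp5e had 33.2 to 88.0 CPM in spleen (median 68.5), 16.6 to 58.6 in bone marrow (median 40.5) and 0 to 47.2 in tumour cells (median 19), a fall from spleen to bone marrow of -0.82 ± 0.30 (adjusted p = 0.0268; 0.0533 without marrow library 8). By complex, no member of complex II (3 tested) or complex IV (6 tested) was called. Without the 4 libraries that stood apart the comparison called 8 of 44 members, 3 higher and 5 lower. Of all 6030 genes in that fit, 1376 were higher and 1313 lower. With library totals alone as the scaling it called 3 of 35 members, all higher, while 1066 of 5143 genes were higher and 904 lower.

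**Figure D3:**
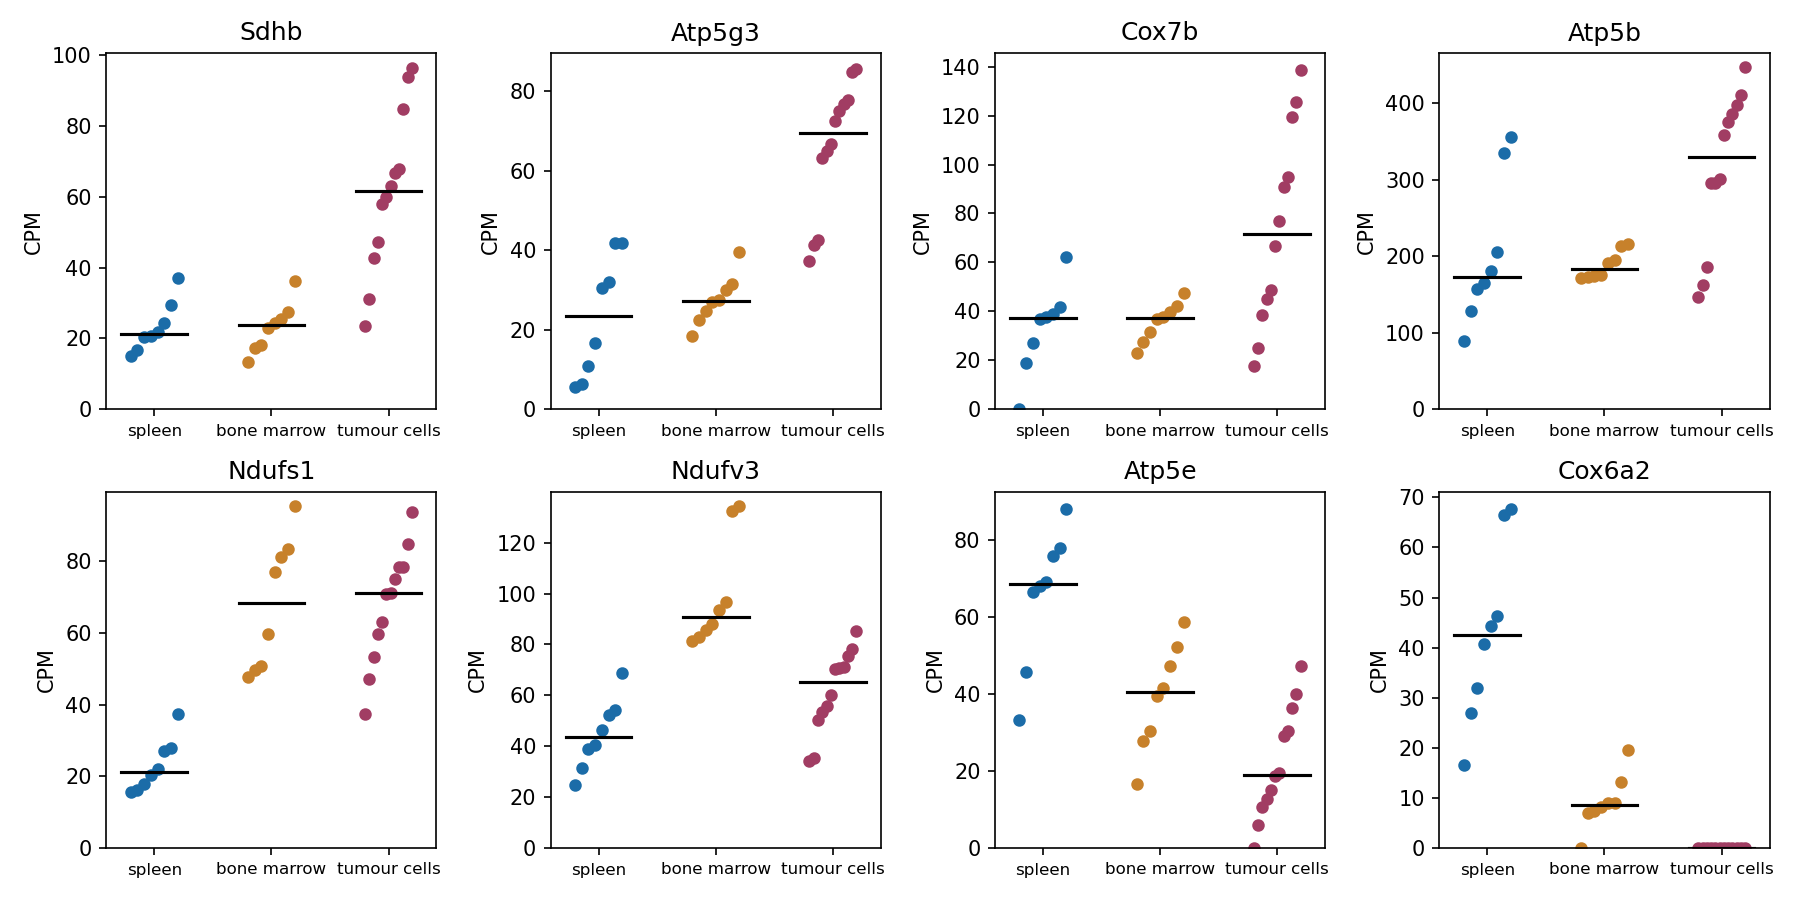
CPM per library (y axis; 1 point a library, line at the median) of 8 members in 8 spleen, 8 bone marrow and 12 tumour cell libraries. Sdhb, Atp5g3, Cox7b and Atp5b have their highest medians in tumour cells, Ndufs1 is low in spleen alone, Ndufv3 is highest in bone marrow, Atp5e is lowest in tumour cells, and Cox6a2 has no read in any tumour library.

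Tumour cells were compared with spleen and with bone marrow as well. These comparisons were added after the column names were known, and they share libraries with each other and with the first, so each is given by its own values. Against spleen, 17 of the 35 members were higher in tumour cells and 4 lower at an adjusted p below 0.05. Of all genes tested, 68.1% were called, so 21 of 35 members is a smaller share than that of all genes. The direction was less even, with higher calls for 17 of 35 members and for 33.4% of all genes, and lower calls for 4 of 35 and 34.7%. The median log2 fold change was 0.54 for the members and 0.01 for all genes. With at least a 2-fold difference as well, 8 members were higher and 1 lower, and 46.8% of all genes were called. Another scaling, edgeR's relative log expression factors, moved the median of all genes to -0.19 and the members' calls to 11 higher and 5 lower. Of all 5143 genes, 1436 were higher and 2043 lower under that scaling. The members' median was 0.52 above that of all genes, and from 0.33 (only these groups in the fit) to 0.53 (DESeq2) above it under the alternatives. Without opposite-strand members the calls were 12 higher and 3 lower of 22, with a background of 66.4%. Without a filter on counts, 13 of 89 members were higher and 10 lower, with a background of 33.8%. By complex, higher and lower calls were 6 and 0 of 11 in complex I, 1 and 0 of 3 in complex II, 2 and 1 of 4 in complex III, 2 and 1 of 6 in complex IV, and 6 and 2 of 11 in complex V.

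Against bone marrow, 12 of the 35 members were higher in tumour cells and 4 lower, which is 45.7%, while 70.1% of all genes were called (34.2% higher and 35.9% lower). Their median log2 fold change was 0.21, and that of all genes -0.03. With the relative log expression factors the median of all genes was -0.18 and the members' calls were 11 higher and 7 lower. Of all 5143 genes, 1545 were higher and 2092 lower under that scaling. The members' median was 0.24 above that of all genes, 0.07 above it with no filter and 0.41 without the libraries that stood apart. Without opposite-strand members, 8 were higher and 3 lower of 22, with a background of 69.0%. By complex, higher and lower calls were 4 and 2 of 11 in complex I, 1 and 0 of 3 in complex II, 1 and 0 of 4 in complex III, 2 and 1 of 6 in complex IV, and 4 and 1 of 11 in complex V. Melanocyte markers were called higher and leukocyte, B cell, erythroid and neutrophil genes lower in both comparisons, all of those tested. Other lists were mixed. Of the macrophage genes tested, Vcam1 was lower in both comparisons and Csf1r higher than in bone marrow. Csf1r has opposite-strand coding exons, and the part of shared reads in its values was not tested. Of the fibroblast genes tested, Col1a1 was higher in both and Col1a2 higher than in bone marrow, and the list summed to 735 CPM in tumour library 2 and 1024 in library 9, against a tumour median of 42.8. The part of cell composition in the members' differences was not tested. Over the 3 tissues together, 22 of the 35 members differed, and 79.5% of all genes did.

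**Figure D4:**
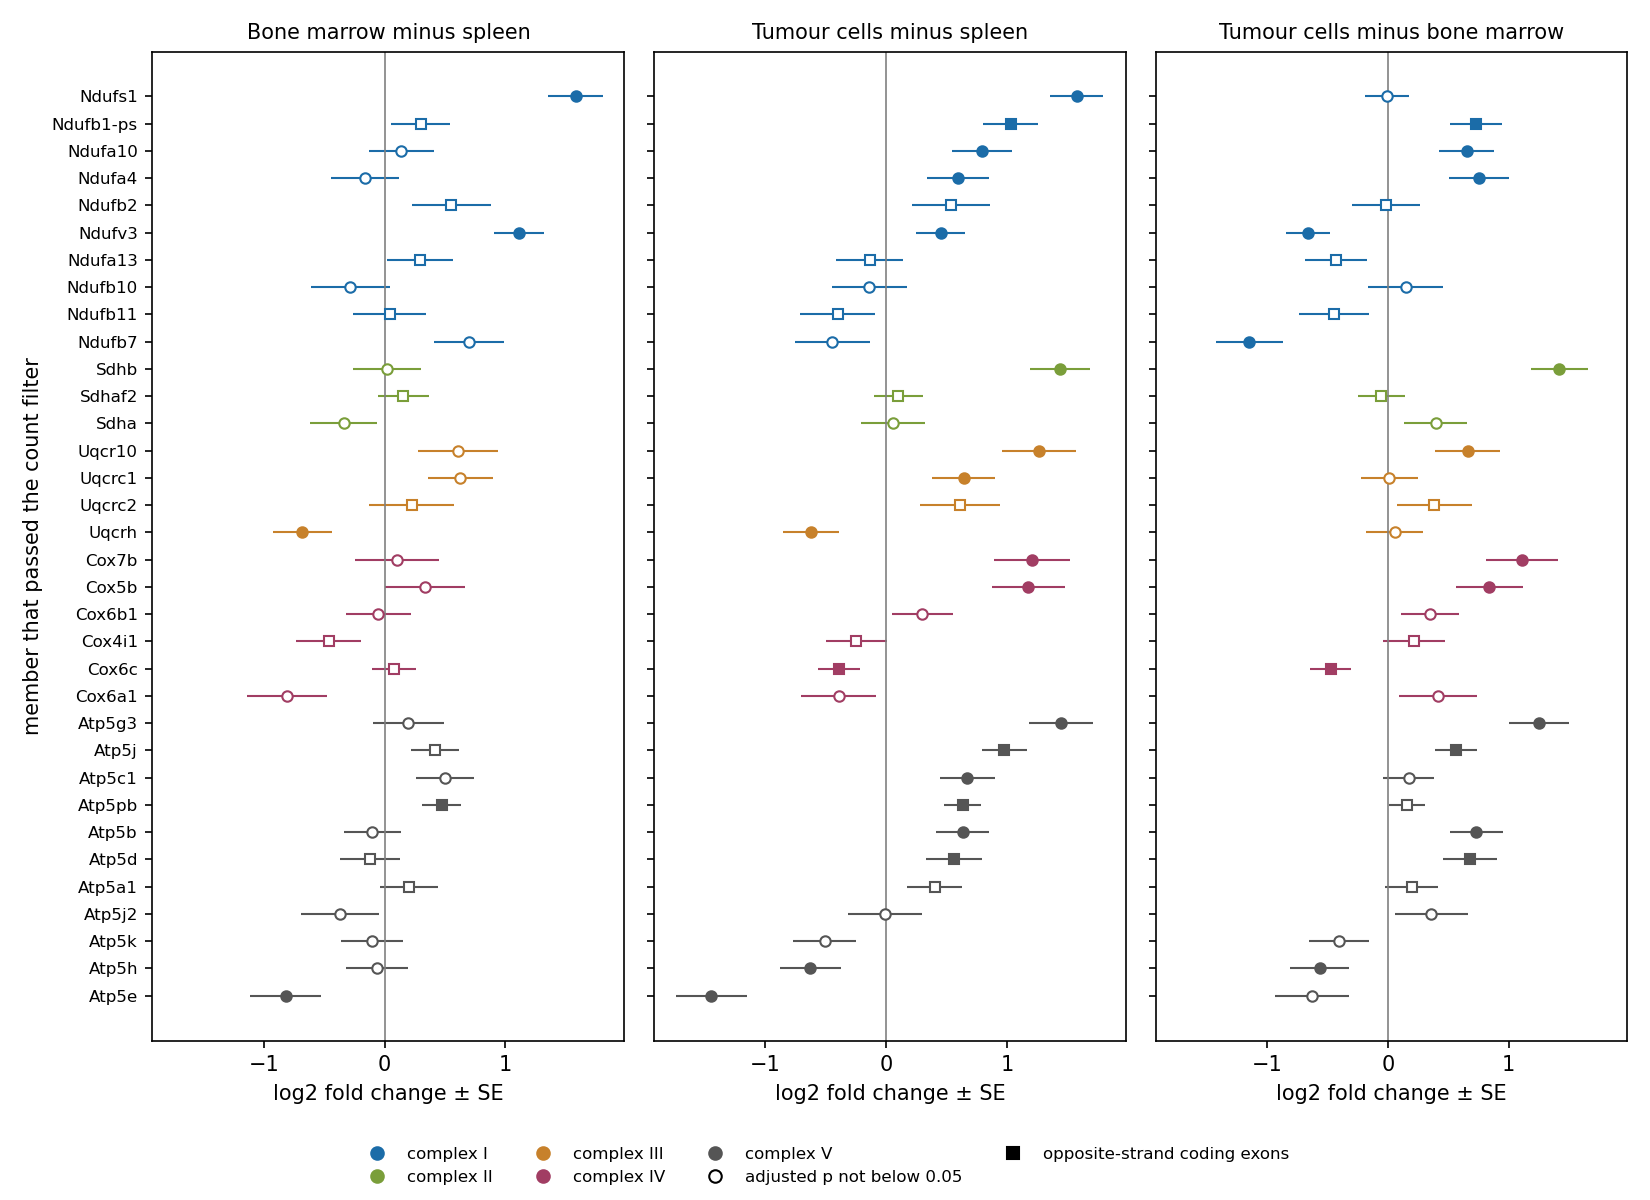
Log2 fold change with its standard error (x axis) of 34 of the 35 members that passed the count filter, in 3 comparisons of tissues, ordered by complex (colour). Filled symbols have an adjusted p below 0.05 in edgeR's quasi-likelihood test, and squares have opposite-strand coding exons. Filled symbols lie mostly right of 0 for tumour cells (16 of 20 against spleen and 11 of 15 against bone marrow), while only 5 members are filled for bone marrow against spleen.

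Among the members of complex II, Sdhb stood out. Sdhb carries the iron-sulfur clusters that take electrons from succinate toward ubiquinone (chromosome 4, 140961203 to 140979193, plus strand). It had 15.0 to 37.1 CPM in spleen (median 21.3), 13.3 to 36.1 in bone marrow (median 23.7) and 23.6 to 96.5 in tumour cells (median 61.6). Tumour libraries were above every spleen and every marrow library in 10 of 12 cases, and the log2 fold changes were 1.44 ± 0.25 (adjusted p = 4.1e-06) and 1.42 ± 0.24 (adjusted p = 1.8e-06). Sdha, the flavoprotein that binds Sdhb, had log2 fold changes of 0.06 ± 0.26 and 0.40 ± 0.26, and neither was called (adjusted p = 0.858 and 0.170). The assembly factor Sdhaf2 had 0.10 ± 0.20 and -0.05 ± 0.19 and was not called either.

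In complex V, Atp5g3 and Atp5e moved in opposite directions. Atp5g3 is 1 of the 3 genes for the c subunit, which forms the rotor ring of the ATP synthase (chromosome 2, 73908447 to 73911326, minus strand). It had 5.54 to 41.9 CPM in spleen (median 23.5), 18.5 to 39.4 in bone marrow (median 27.2) and 37.3 to 85.6 in tumour cells (median 69.5), with 10 of 12 tumour libraries above every spleen library and 11 of 12 above every marrow library. Its log2 fold changes were 1.45 ± 0.26 (adjusted p = 9.67e-06) and 1.25 ± 0.25 (adjusted p = 2.97e-05). Atp5b, the member with the most reads over all 28 libraries, had 88.6 to 357 CPM in spleen (median 173), 171 to 217 in bone marrow (median 183) and 147 to 448 in tumour cells (median 330). Its groups overlapped, and the log2 fold changes were 0.63 ± 0.22 against spleen (adjusted p = 0.0114) and 0.73 ± 0.22 against bone marrow (adjusted p = 0.00328); the call against spleen was lost without any of 9 single libraries (spleen 2, 7 or 8, marrow 3, 4 or 7, tumour 2, 4 or 9; adjusted p up to 0.0894). Atp5e fell by 1.45 on the log2 scale (± 0.30, adjusted p = 5.04e-05) against spleen and had -0.63 ± 0.31 against bone marrow (adjusted p = 0.0662). Atp5h, the d subunit of the stalk, was lower in both comparisons, at -0.63 ± 0.25 (adjusted p = 0.0276) and -0.56 ± 0.25 (adjusted p = 0.0403; 0.0535 without marrow library 5).

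Complex I held members that moved in either direction. Ndufb7, a small subunit of the membrane arm, had 10.8 to 41.9 CPM in spleen (median 30.7), 31.6 to 73.7 in bone marrow (median 41) and 0 to 31.5 in tumour cells (median 19.7). All 12 tumour libraries were below every marrow library, with a log2 fold change of -1.15 ± 0.28 (adjusted p = 0.000407). Ndufs1 was higher in tumour cells than in spleen (1.58 ± 0.22, adjusted p = 6.91e-08, 11 of 12 libraries above every spleen library), and against bone marrow its log2 fold change was -0.00 ± 0.18.

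Complexes III and IV were represented by fewer tested genes. Uqcr10, a small subunit of complex III, had 5.54 to 33.1 CPM in spleen (median 13.5), 9.23 to 34.1 in bone marrow (median 20.9) and 5.89 to 60.04 in tumour cells (median 35.9), with log2 fold changes of 1.27 ± 0.31 (adjusted p = 0.000449) and 0.66 ± 0.27 (adjusted p = 0.0281); the call against bone marrow was lost without any of 12 single libraries (spleen 5, marrow 1, 2, 3, 4, 6, 7 or 8, tumour 2, 3, 4 or 5; adjusted p up to 0.1004). Uqcrh was lower in tumour cells than in spleen (-0.62 ± 0.23, adjusted p = 0.0180; not called with limma-voom). Cox7b, a small complex IV subunit on the X chromosome, had 0 to 62.1 CPM in spleen (median 37.3), 23.1 to 47.6 in bone marrow (median 37.3) and 17.7 to 139 in tumour cells (median 71.8). The tumour libraries spread more widely than either organ and overlapped both, with log2 fold changes of 1.21 ± 0.31 (adjusted p = 0.000927) and 1.11 ± 0.30 (adjusted p = 0.00123). Cox5b, which binds zinc in complex IV, rose as well (1.18 ± 0.30, adjusted p = 0.0009, and 0.84 ± 0.28, adjusted p = 0.00761; 0.0736 without marrow library 3).

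Other calls against spleen did not hold when single libraries were left out. For all but Cox6c these libraries included some of bone marrow, which are in the fit but not in this comparison. The calls of Uqcrc1 and Ndufv3 were each lost in 25 of 28 removals of 1 library, that of Ndufa4 in 23, Atp5d in 22, Atp5c1 in 6 and Cox6c in 4, of libraries of all 3 tissues for the first 5 and of spleen libraries 1, 3 and 4 or tumour library 1 for Cox6c. The adjusted p of these reached 0.168, 0.284, 0.181, 0.211, 0.0737 and 0.0634. Against bone marrow the call of Ndufa10 was lost without marrow library 1, 3, 4, 6 or 7 (adjusted p up to 0.0855) and that of Atp5d without marrow library 3 or 4 (up to 0.0583).

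Several complex IV and V subunits have tissue isoforms encoded by separate genes, and the reads show which member of a pair was counted. Cox6a2, known as the heart and muscle isoform of subunit 6a, lies inside Itgad on the opposite strand (chromosome 7, 128205435 to 128206387, minus strand) and shares 70 exonic bases with it. It had 113 reads in spleen, 32 in bone marrow and 0 in tumour cells, against 98, 77 and 95 for the ubiquitous Cox6a1. In CPM, Cox6a2 ranged from 16.6 to 67.7 in spleen (median 42.5) and from 0 to 19.6 in bone marrow (median 8.63). It did not pass the count filter, and with 3 counts over the 12 tumour libraries as the floor it was at least 47.1-fold higher in spleen and at least 10.3-fold higher in bone marrow than in tumour cells, by pooled counts. Itgad, a leukocyte integrin gene, had 36 reads in spleen, 35 in bone marrow and 0 in tumour cells. Which strand the reads counted for Cox6a2 and for Itgad came from was not tested, nor was the part of shared reads. Per length, with 1 read added to each count, the ratio of Cox6a2 to Cox6a1 had a median of 1.17 in spleen (0.323 to 6.71 over libraries) and 0.639 in bone marrow (0.0645 to 1.55). The summed CPM of Cox6a2, Cox7a1 and Cox8b was set against fat and striated muscle markers in each tissue, and none of the 6 correlations passed (permutation adjusted p from 0.266 to 0.842 for Pearson's r, which lay between -0.41 and 0.68, and from 0.324 to 0.977 for Spearman's rho, between -0.43 and 0.66).

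The other isoforms were low. Cox6b2, known from testis, had 13 reads in spleen, 24 in bone marrow and 1 in tumour cells, against 104, 136 and 160 for Cox6b1. Cox7a1, known from muscle, had 7, 9 and 13 reads against 46, 76 and 97 for Cox7a2. Cox4i2, known as the lung and low-oxygen isoform, had 0, 0 and 1 reads against 201, 184 and 206 for Cox4i1, and Cox8b had 1, 0 and 4 against 33, 39 and 36 for Cox8a. Ndufa4l2, which is known to be induced by low oxygen, had 4, 1 and 4 reads against 96, 117 and 187 for Ndufa4. Of the c subunit genes, which give the same mature protein, Atp5g3 had 68, 102 and 232 reads, Atp5g2 20, 26 and 49, and Atp5g1 16, 21 and 34. Per length, the median ratio of Atp5g1 to Atp5g3 was 0.159, 0.108 and 0.0863, and that of Atp5g2 to Atp5g3 0.651, 0.342 and 0.347.

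Related genes outside the prefixes were read from lists, whose counts stand against the 38.4%, 68.1% and 70.1% of all genes called in the 3 comparisons. Of the subunits and electron carriers with other names, 3 were tested. Cycs, which encodes cytochrome c, and Cyc1, the cytochrome c1 subunit of complex III, were higher in tumour cells than in spleen (1.91 ± 0.26 and 1.47 ± 0.28; adjusted p = 4.34e-08 and 2.37e-05) and than in bone marrow (1.40 ± 0.23 and 0.69 ± 0.25; adjusted p = 1.77e-06 and 0.0125), and Cyc1 was also higher in bone marrow than in spleen (0.78 ± 0.31, adjusted p = 0.0419). Atpif1, the inhibitor of the ATP synthase, was lower in tumour cells (-2.51 ± 0.43 and -1.85 ± 0.43; adjusted p = 3.98e-06 and 0.000289); its CPM in spleen reached 799 against a median of 79.8. Of 10 tested enzymes of the tricarboxylic acid cycle and pyruvate dehydrogenase, 6 were higher and 0 lower in tumour cells than in spleen, 5 higher and 1 lower than in bone marrow, and 1 was higher in bone marrow than in spleen (median log2 fold changes 0.89, 0.54 and 0.20). Against spleen and against bone marrow, 6 of 10 were called, a smaller share than that of all genes. Pdha1, of pyruvate dehydrogenase, was the call in bone marrow (2.39 ± 0.19, adjusted p = 9.45e-13).

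Of 8 tested assembly factors, of which 4 (Cox20, Cox15, Surf1 and Sco2) have opposite-strand coding exons, 1 was higher and 4 were lower in tumour cells than in spleen, and 2 higher and 5 lower than in bone marrow (median log2 fold changes -0.57 and -0.72), and 1 (Cox15) was higher in bone marrow than in spleen. Surf1, a complex IV assembly factor, was higher in tumour cells (0.78 ± 0.20 and 1.08 ± 0.20; adjusted p = 0.00103 and 1.3e-05), and Cox15, which makes heme a for complex IV, was lower (-0.66 ± 0.18 and -1.30 ± 0.17; adjusted p = 0.00134 and 1.87e-08). Of 7 tested mitochondrially encoded genes, 4 were lower in tumour cells than in spleen and 2 lower in bone marrow than in spleen, and 1 (mt-Cytb) was higher in tumour cells than in bone marrow. Of 5 tested regulators, none was called between bone marrow and spleen, and 2 were higher and 1 lower in tumour cells in both comparisons. Ppargc1a, which encodes the coactivator PGC-1alpha that raises transcription of mitochondrial genes, had 285 reads in tumour cells, 1 in spleen and 0 in bone marrow, and 34.1 to 151 CPM in the 12 tumour libraries. The subunits of GABP went apart: Gabpa was higher in tumour cells than in spleen (0.99 ± 0.19, adjusted p = 3.06e-05) and Gabpb1 lower (-0.67 ± 0.27, adjusted p = 0.0290). Gabpa lies opposite Atp5j, a stalk subunit of the ATP synthase that rose too (0.98 ± 0.19, adjusted p = 1.83e-05), so the part of shared reads was not tested for either gene.

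The effect of genotype was read from the authors' deposited table, which compares knockout with wild-type CD45-negative tumour cells over 11340 genes. The direction of the subtraction is not stated in it, so which genotype a negative value stands for cannot be read. In the authors' deposited table, 68 of the 81 members found had a negative log2 fold change and 13 a positive one. That is 84.0% negative, against 58.5% of all genes, with a median of -0.56 against -0.14. At an adjusted p below 0.05, 2 members were called in the authors' deposited table, both negative, while 0.644% of all genes were called. They were Cox7b (-1.10, adjusted p = 0.0212) and Atp5a1, the alpha subunit of the ATP synthase (-0.84, adjusted p = 0.0369), and Atp5a1 has opposite-strand coding exons of Haus1. At an adjusted p below 0.1 the authors' deposited table called 6 members, and 2.57% of all genes.

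The sign was also counted by complex. In the authors' deposited table all 8 genes of complex III were negative, with a median log2 fold change of -0.91 and a range from -1.17 (Uqcrc2) to -0.46 (Uqcrh). In complex V, 16 of 17 were negative (median -0.61), in complex IV 10 of 12 (median -0.62) and in complex II 4 of 6 (median -0.61), where both positive values in the authors' deposited table were those of the assembly factors Sdhaf1 and Sdhaf2. Complex I had 30 of 38 negative and a median of -0.35, the smallest of the 5 medians in the authors' deposited table, and it held the most negative member, Ndufa11 (-2.22, adjusted p = 0.120). The largest positive value in the authors' deposited table was that of the muscle isoform Cox7a1 (0.59, adjusted p = 0.749). Whether the complexes differ from each other was not tested.

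Opposite-strand position went with the sign here as well. In the authors' deposited table, 55 of 61 members without opposite-strand coding exons were negative (90.2%, median -0.63). Of the 7955 genes of that kind, 71.6% were negative (median -0.31). Of the members with such exons, 13 of 20 were negative in the authors' deposited table (65.0%, median -0.20). Of the 3385 genes of that kind, 27.9% were negative (median 0.25). The tricarboxylic acid cycle list was negative in 16 of 16 genes of the authors' deposited table (median -0.66), the assembly factors in 19 of 34 (median -0.15) and the regulators in 9 of 12 (median -0.23). All 6 melanocyte markers were negative in the authors' deposited table too (median -0.69), with 2 called at an adjusted p below 0.05, and their part in the members' values was not tested. The mean log2 CPM that the authors' deposited table gives for the 81 members followed their mean in the 12 tumour columns (Pearson r = 0.992 across genes, which are not independent replicates and share these libraries).

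**Figure D5:**
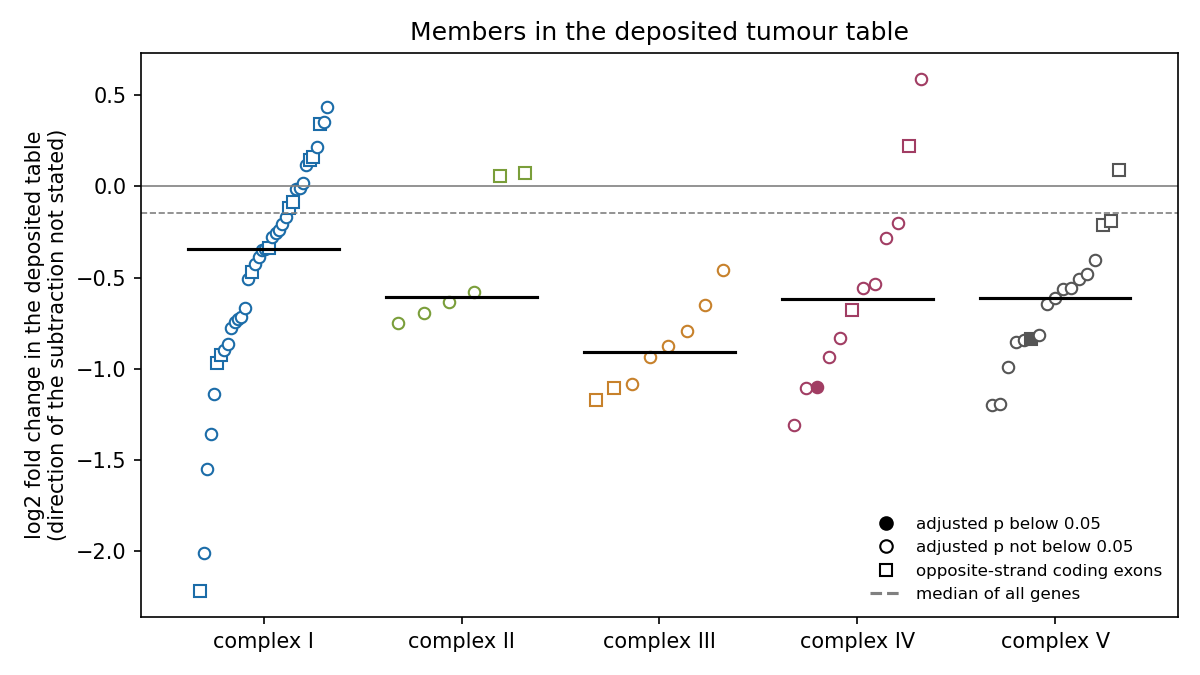
Log2 fold change of 81 members in the authors' deposited tumour table (y axis; direction of the subtraction not stated), by complex, with the median of each complex as a black line and the median of all genes (-0.14) dashed. Filled symbols, Cox7b and Atp5a1, have an adjusted p below 0.05, and squares have opposite-strand coding exons. All 8 genes of complex III lie below 0, and 8 of the 13 positive values are in complex I, which holds 38 of the 81 members.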

How the data were processed

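Per the labels' protocols, poly(A) RNA libraries came from a stranded kit, read at 50 bp from both ends. GRCm38 and mm10 stand as builds, and HISAT2 and edgeR as tools, in the submitters' processing notes. Neither the counting program nor its strand setting is stated there. The authors deposited raw counts per gene for 48 columns, of which 20 were not used. For knockout and wild-type tumours, the authors' deposited table gives, per the file headers, log2 fold changes and mean log2 CPM, an F score, and p-values with adjusted p-values.

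Counts of 28 columns, none of them without a gene identifier, were fitted with edgeR 4.0.16 (quasi-likelihood F test, TMM factors, filterByExpr, limma 3.58.1, R 4.3.3), all 3 tissues in 1 model, with Benjamini-Hochberg adjustment over 5143 genes. Of 4 planned tissue comparisons, 1 could be run, and 2 were added after the column names were seen. CPM use TMM-scaled totals. Exons came from GENCODE M21 on GRCm38, where all 92 members have the coordinates of the table. On simulated data for bone marrow against spleen (5143 genes), 70% of genes changed 2-fold, 100% of those changed 4-fold and 0.121% of unchanged genes were called. Correlations were tested by permutation (exact, or 100000 resamples for 12 libraries).

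The members and lists were chosen with earlier results of these data known. Named are all isoforms of pairs, the 3 highest and 2 lowest members per length of each complex, and the 3 called members with the largest change in each direction of each comparison; other named genes were chosen after their values were seen. Alternatives were other size factors, tools (DESeq2 1.42.0, limma-voom), filters, thresholds, groups in the fit and libraries or members left out. Standard errors come from the quasi-likelihood fit and hold the spread between libraries, while floors cover counting error only. Some results on single genes are not reported here, while counts over genes include them.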

Additional observations from a re-analysis of the deposited data

Results flagged for a closer look

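Dixon's test for a library far from its group was applied to 72 groups of values, of which chance flags about 1 in 20, and 5 were flagged. Ndufb1-ps was at 74.6 CPM in spleen library 6, against 16.6 to 37.6 in the other spleen libraries, and at 53.0 CPM in marrow library 3, against 34.6 to 42.7 in the other marrow libraries. Marrow library 5 was high in 3 values. Its members without opposite-strand coding exons took 0.592% of the counts of such genes, against 0.456% to 0.502% in the others. Its summed CPM of complex I was 1053, against 733 to 877, and its Ndufb7 level was 73.7 CPM, against 31.6 to 50.7. Tumour groups have more than 10 libraries and were not tested.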

How the results depend on the processing

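None of the called genes followed by name changed sign under the alternatives run, but the members' median for bone marrow minus spleen went from 0.10 to -0.04 with no filter and -0.01 with 1 CPM in 8 libraries, and its calls from 3 higher and 2 lower to 2 and 5 with no filter. With no filter, 1819 of all 24548 genes were higher in bone marrow and 2942 lower. For bone marrow minus spleen, the 5 called members became 3 with library totals alone, 8 (3 higher, 5 lower) without the libraries that stand apart and 2 at an adjusted p below 0.01. Calls over all genes for the first 2 of these settings are given with that comparison above. For tumour cells minus spleen, the 21 became 13 of 28 with only these groups in the fit and 13 at an adjusted p below 0.01. With only these groups in the fit, 1204 of 3879 genes were higher and 1286 lower. In the authors' deposited table the 2 called members became 6 at an adjusted p below 0.1 and 1 without opposite-strand members. Of the 7955 genes without opposite-strand coding exons in the authors' deposited table, 36 were called at an adjusted p below 0.05. Apart from the changed thresholds and the members left out, the cause was not tested. Leaving out each library in turn gave 4 to 7 calls for bone marrow minus spleen, 16 to 23 for tumour cells minus spleen and 15 to 19 for tumour cells minus bone marrow. Calls for tumour cells minus spleen split into 17 higher and 4 lower, 11 and 5 with relative log expression factors, and 13 and 10 without a filter. Of single-gene values under alternatives, 146 kept direction and side of the threshold and 7 kept direction only (Uqcrh 4 times, Atp5pb 2 times and Atp5e 1 time). Spleen and bone marrow columns share running numbers that no label ties to an animal. Deviations of same-numbered libraries correlated between -0.03 and 0.48 over 8 numbers, not above 0.1 in each. Libraries numbered 1, 5 and 8 were each other's best match between the organs. Those numbered 3, 4 and 6 matched best in 1 direction only, and those numbered 2 and 7 in neither. Pairing by animal is therefore not excluded, and the main p-values for bone marrow minus spleen take these libraries as separate. With the running numbers as a replicate block, added after the data were seen, 4 of 28 members were called, as without the block in these groups. Without the block, 850 of 4239 genes were higher in bone marrow and 748 lower. Tumours came from other mice than the baseline organs, and no such block was fitted. Planned comparisons with lymph node were not run, since their columns could not be given a group. With 153 to 2127 counts for all members in a library, 57 of 92 members were too low to test.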
